A study of Mus musculus with 4 samples.

Results

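The mitosis genes described here are 40 genes that cells switch on to divide: cyclins and their kinase Cdk1, spindle checkpoint proteins, the machinery that ends mitosis, kinesin motors, and proteins of the centromere, spindle and chromosome axis. They were chosen by name. Each was read from array probe sets annotated with that gene symbol alone, and the probe set with the highest mean signal over the 4 arrays stood for the gene. In this way 38 of the 40 were measured, among 12393 genes in all, and the signals of Ccnb1 and Cdca8 were not analysed here. RNA came from skin melanocytes, the pigment cells of the epidermis, raised from the tail skin of female mice in a melanocyte medium without serum, over 6 to 8 weeks, and passaged whenever the dishes filled. The AhR knockout mice (strain AhRtm1Bra, n = 2) lack exon 2 of the gene for the aryl hydrocarbon receptor, a transcription factor activated by dioxins and by other small aromatic molecules. The wild-type mice (strain C57Bl/6, n = 2) carry the intact gene. The loss is present in every cell of the knockout animals, each array is 1 animal, and the labels give no ages.

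Entry into mitosis is driven by Cdk1 bound to cyclin A or cyclin B. Exit follows when the anaphase-promoting complex, a ubiquitin ligase, tags cyclin B and securin for destruction. The genes for these proteins are transcribed in waves that peak in G2 and mitosis, under the control of the MuvB protein complex with B-Myb and Foxm1, and they are shut off in resting cells by the same MuvB core in its DREAM form. In a culture of mixed, unsynchronised cells, a higher level of these transcripts can come from more dividing cells or from more transcript in each dividing cell, and bulk arrays cannot tell these apart.

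The promoters show what most of these genes share apart from their function. The cell cycle genes homology region, CHR, is the site where MuvB binds. Its letters are TTTGAA, or TTCAAA where it stands on the opposite strand. The factor NF-Y binds the letters CCAAT, which read ATTGG when reversed. Both sites were searched on either strand, in the 250 bases before and 50 bases after each gene's start in RefSeq's promoters of build GRCm38.p6. That table matched 33 of the 40 genes. The CHR letters were present for 24 of the 33 mitosis genes (72.7%), against 13.6% of 6103 genes tested on the arrays that had a promoter and 20.2% of all 27025 genes in the table. CCAAT was present for 81.8% of the mitosis genes, against 43.1% of the tested genes. Both were present for 22 mitosis genes, or 66.7%, against 5.37% of the tested genes. More than a single CCAAT stood in the promoters of 19 mitosis genes (57.6%), against 17.5% of the tested genes.

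Promoters of 4 genes are shown, with the CHR letters and the NF-Y letters in capitals. Cenpa, Ube2c and Cdc20 had the smallest unadjusted p-values of the tested mitosis genes whose promoter holds the CHR letters. Prc1 had the difference nearest to 0 of the tested mitosis genes with a promoter in the table. Each runs 5′ to 3′ on the strand of the gene, from 200 bases before the start to 25 bases after it. They lie at chr5:30666686-30666910 (Cenpa, plus strand), chr2:164769729-164769953 (Ube2c, plus strand), chr4:118437319-118437543 (Cdc20, minus strand) and chr7:80294251-80294475 (Prc1, plus strand).
Cenpa: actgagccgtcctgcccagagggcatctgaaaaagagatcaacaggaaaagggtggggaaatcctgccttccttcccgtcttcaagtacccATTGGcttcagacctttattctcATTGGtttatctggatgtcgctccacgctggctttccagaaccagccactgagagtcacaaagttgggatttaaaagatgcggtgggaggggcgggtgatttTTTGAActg
Ube2c: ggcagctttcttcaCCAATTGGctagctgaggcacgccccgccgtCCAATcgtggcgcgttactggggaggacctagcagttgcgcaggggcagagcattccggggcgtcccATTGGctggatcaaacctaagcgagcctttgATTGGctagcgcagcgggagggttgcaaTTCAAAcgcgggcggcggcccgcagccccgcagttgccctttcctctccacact
Cdc20: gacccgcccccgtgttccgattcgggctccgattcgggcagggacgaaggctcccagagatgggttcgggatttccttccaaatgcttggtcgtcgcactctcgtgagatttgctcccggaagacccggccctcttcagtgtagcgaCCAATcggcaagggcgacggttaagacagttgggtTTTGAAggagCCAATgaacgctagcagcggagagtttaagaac
Prc1: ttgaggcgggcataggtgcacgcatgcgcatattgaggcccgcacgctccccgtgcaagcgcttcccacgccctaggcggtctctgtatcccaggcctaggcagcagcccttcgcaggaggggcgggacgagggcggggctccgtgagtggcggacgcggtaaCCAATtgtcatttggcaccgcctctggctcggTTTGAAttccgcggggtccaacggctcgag

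In Cdc20 the CHR letters begin at base -18 from the start, and NF-Y letters begin at bases -53 and -8. In Ube2c the CHR letters stand on the opposite strand, beginning at base -29, and the leftmost capitals are a forward NF-Y site that overlaps a reversed one. Cenpa has its CHR letters after the start, beginning at base 17. Prc1 also holds CHR letters, beginning at base -5, and NF-Y letters at base -37, so these letters stood in promoters of genes with large and with small differences on the arrays. The match is a description of letters and shows no binding.

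**Figure D1:**
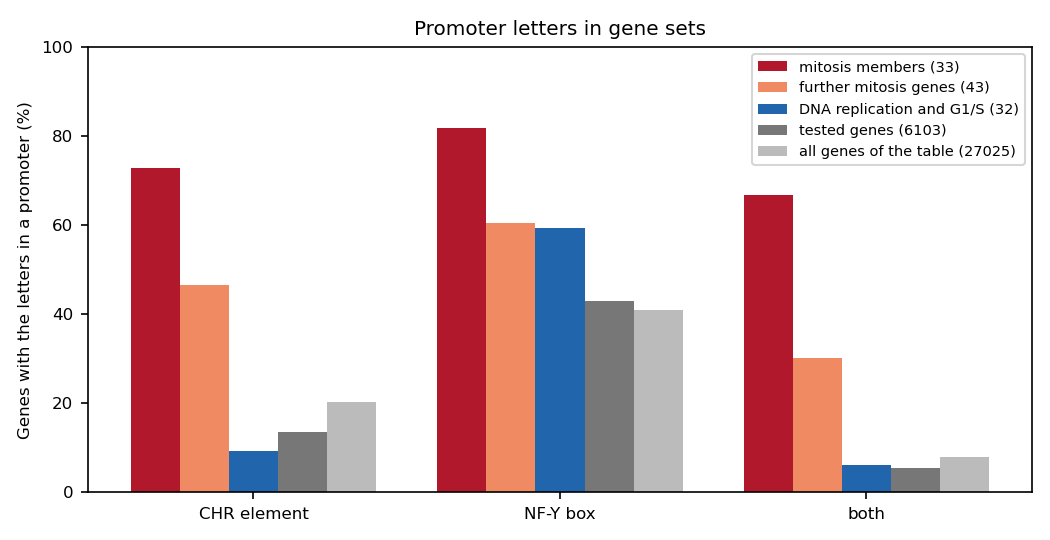
Bars give the percentage of genes with the CHR letters, the CCAAT letters of the NF-Y box, or both, in a RefSeq promoter, for 5 gene sets with the number of genes in brackets. The mitosis genes stand highest in each group of bars, at 72.7%, 81.8% and 66.7%, and genes of DNA replication and G1/S hold the CHR letters in 9.38%.

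The arrays carry no count depth. Their trimmed means were alike, at 499.9 on each, as a common scaling would make them, so they do not check the arrays. Median signals were 89.5 and 94.0 in AhR knockout, against 96.8 and 98.4 in wild type. The number of animals limits the precision. Control probe sets at the 3′ end of Gapdh read 1.98 times those at its 5′ end in AhR knockout 1 and 11.9 times in AhR knockout 2, against 2.13 and 2.85 times in the wild-type arrays. AhR knockout 2 thus stood apart, and results are given for each knockout array. For Ahr itself the probe set read 241 and 843 in the knockout arrays, against 825 and 874 in the wild-type arrays. Whether that probe set lies in the deleted exon is not known, so it does not check the labels. Cyp1b1, a classical AhR target, read 14.0 and 23.1 in the knockout arrays, against 1216 and 1410 in the wild-type arrays.

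Most mitosis genes read higher in the knockout cultures, by modest amounts and 0 of the tested ones passed the test by itself. The test was limma's moderated test on log2(signal + 16), run over the 7436 genes in the top 60% by mean signal (81.1 or more), with Benjamini-Hochberg adjustment and a threshold of 0.05. Only 21 of the 38 measured mitosis genes passed this filter on dim signals. Of the 21, 20 had a higher mean in AhR knockout and Smc4 a lower one, where 50.3% of all tested genes were higher. Their median log2 difference, knockout minus wild type, was 0.65 (0.57 for AhR knockout 1 and 0.85 for AhR knockout 2, each against the wild-type mean), beside 0.0055 over all tested genes. None of the 21 passed limma's test, where 0.955% of tested genes did, 0.202% in the upward and 0.753% in the downward direction. An unadjusted p under 0.05 was reached by 9 of the higher and 0 of the lower, and by 7.68% of tested genes in the upward and 12.9% in the downward direction. The calls depended on single arrays. With AhR knockout 1 left out 8 of the 21 passed, all higher, and with AhR knockout 2 left out 5 passed, when 18.3% and 13.9% of all tested genes passed too. Cenpa, Ube2c, Cdc20 and Cdca3 were among the calls in both. In these fits the knockout group is a single array, assumed to vary like the wild-type pair that alone gives each gene its own spread. With wild type 1 or wild type 2 left out, 0 of the 21 passed, where 2.04% and 0.269% of all tested genes did, and 7 and 3 of the 21 had an unadjusted p under 0.05.

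The filter bears on these counts, since a dim gene can pass through the group in which it is brighter. Without any filter, 33 of the 38 measured mitosis genes had a higher mean in AhR knockout, with a median of 0.58, beside 0.080 and 56.1% higher over all 12393 genes. Among the 21 that passed, 15 would have reached a signal of 81.1 on their wild-type mean alone, and 14 of these were higher in AhR knockout. The other 6, Cenpa, Cdca3, Aurka, Ccnb2, Birc5 and Foxm1, were tested only because their knockout signals were high, so that the filter fixed the direction of their mean signals. These 6 hold 5 of the 9 with an unadjusted p under 0.05. Kif2c lay just outside the filter with a mean signal of 80.5, and Foxm1 just inside with 84.3.

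Both knockout arrays read above both wild-type arrays for 16 of the 21 tested mitosis genes, where 28.7% of tested genes did so. None lay below in both, where 26.7% of tested genes did. Over the 38 measured mitosis genes, AhR knockout 2 lay above both wild-type arrays for 36 and AhR knockout 1 for 25, against 45.5% of all measured genes for either array. In 12 genes AhR knockout 2 alone was above: Smc4, Cks2, Foxm1, Incenp, Prc1, Mki67, Smc2, Bub1, Ttk, Ndc80, Kif11 and Nusap1. AhR knockout 2 also had the high Gapdh ratio, whose part in these 12 genes was not tested. Bub1b was the 1 gene in which AhR knockout 1 alone was above. Without AhR knockout 2 the median of the 21 tested genes was 0.57, with 18 of the 21 higher.

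**Figure D2:**
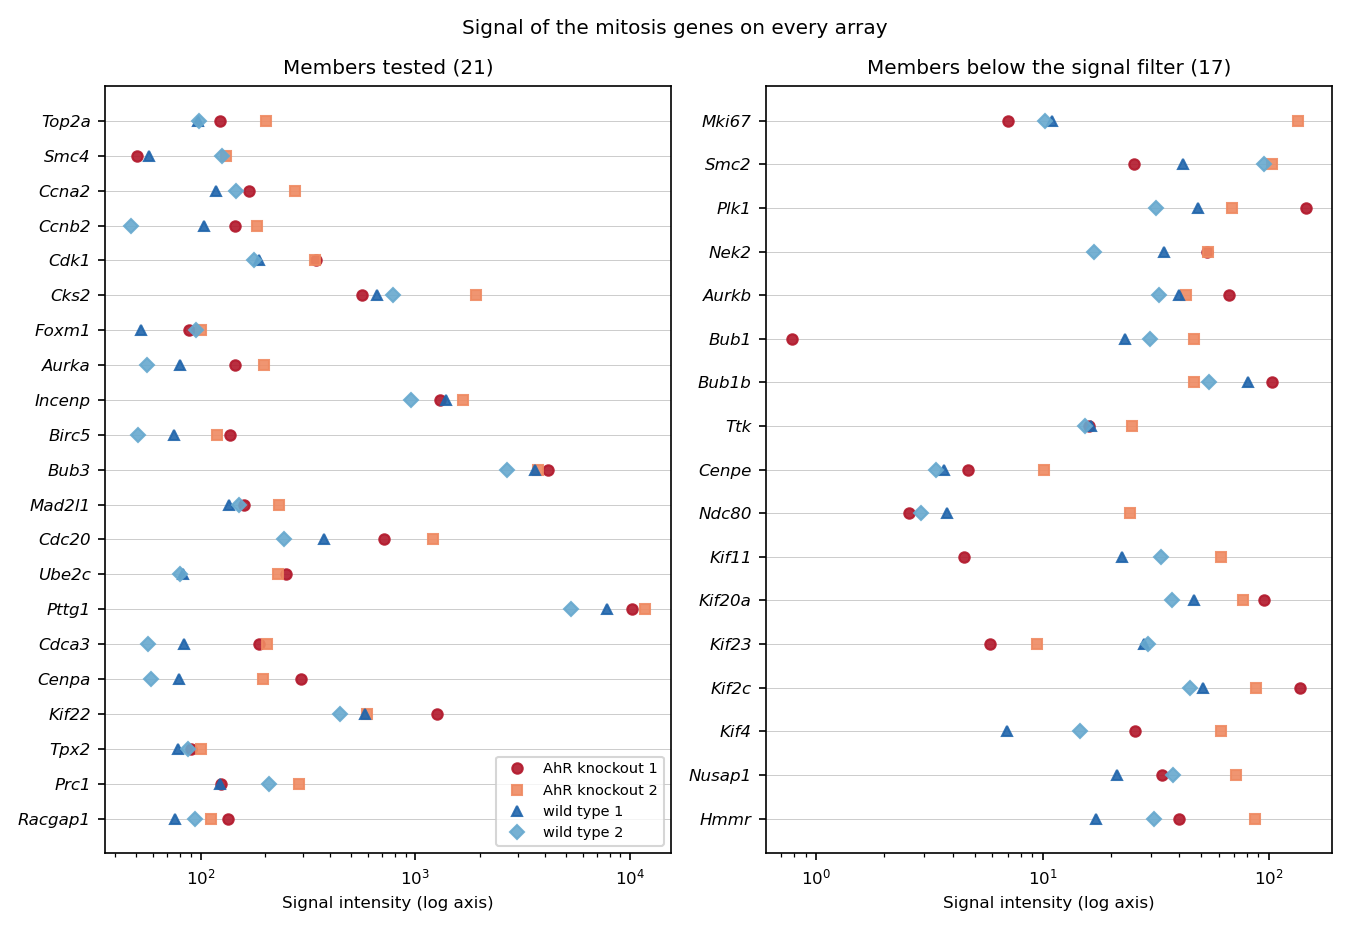
Points give the deposited signal (log axis) of each measured mitosis gene on AhR knockout 1 and 2 and wild type 1 and 2, with the 21 tested genes on the left and the 17 dimmer ones on the right. Both knockout arrays lie to the right of both wild-type arrays for 16 genes on the left and 8 on the right, and Kif23 alone shows the opposite order.

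The machinery of anaphase and mitotic exit was measured by 4 genes, all brighter than the filter and all higher by their means. Cdc20, which activates the anaphase-promoting complex, read 717 and 1213 in the AhR knockout arrays, against 374 and 244 in the wild-type arrays. Its log2 difference was 1.57 ± 0.41 (SE, n = 2 and 2), with adjusted p = 0.091 in limma. Ube2c, the ubiquitin-conjugating enzyme that works with this complex, read 249 and 229 in AhR knockout, against 82.7 and 79.9 in wild type. The replicates of Ube2c lay close together in both groups, and its difference was 1.39 ± 0.35 on the log2 scale with adjusted p = 0.083. Cdca3, a cell cycle protein that is itself a substrate of the complex, read 187 and 204 in AhR knockout, against 83.5 and 57.0 in wild type (log2 difference 1.31, adjusted p = 0.10). Pttg1, the securin that holds separase back until anaphase, read 10189.7 and 11723.5 in AhR knockout, against 7763 and 5307 in wild type (log2 difference 0.77, adjusted p = 0.19). In all 4 genes the groups did not overlap, with both knockout arrays above, as for 28.7% of all tested genes. All 4 had an unadjusted p under 0.05, reached in this direction by 7.68% of all tested genes. However, Cdca3 passed the filter only through its knockout signals, which fixed the direction of its mean signals.

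A second Cdc20 probe set read 243 and 207 in AhR knockout, against 143 and 132 in wild type, a log2 difference of 0.65. The direction was the same and the size smaller than on the brighter probe set. Of the remaining Pttg1 probe sets, 1 read 1422 and 459 in AhR knockout, against 819 and 466 in wild type, so the groups overlapped there. The further Cdca3 probe sets, both dimmer, gave log2 differences of 0.083, with overlap, and 0.36.

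Cenpa, the histone H3 variant that marks the centromere, had the largest difference of the tested mitosis genes. Its signal was 294 and 194 in AhR knockout, against 79.6 and 59.1 in wild type, a log2 difference of 1.59 ± 0.38 with adjusted p = 0.074 in limma. The groups were well apart, and this was also the smallest adjusted p of the 21. The wild-type signals alone were under the filter, which Cenpa passed through its knockout arrays. Cenpe, a kinetochore motor, was dim everywhere, with 4.66 and 10.1 in AhR knockout and 3.65 and 3.38 in wild type. Ndc80, which couples kinetochores to microtubules, read 2.56 and 24.3 in AhR knockout, against 3.77 and 2.91 in wild type, and so was above wild type in AhR knockout 2 alone.

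The cyclin and Cdk1 group was higher by its means in 5 of 5 tested genes, where 50.3% of all tested genes were higher. Ccnb2 and Foxm1 passed the filter only through their knockout signals, which fixed the direction of their mean signals. Cks2 and Foxm1 overlapped between the groups. Ccnb2, cyclin B2, read 144 and 183 in AhR knockout, against 104 and 47.5 in wild type, a log2 difference of 1.03 ± 0.42 with adjusted p = 0.21. Cdk1, the kinase that drives mitotic entry, read 345 and 339.9 in AhR knockout, against 186 and 177 in wild type. Its difference was 0.86 ± 0.35 on the log2 scale with adjusted p = 0.21, and both arrays of each group nearly coincided. Ccna2, cyclin A2, read 169 and 275 in AhR knockout, against 118 and 146 in wild type (log2 difference 0.65, adjusted p = 0.36). Cks2, a small subunit that binds Cdk1, read 567 and 1921 in AhR knockout, against 663 and 786 in wild type. Cks2 therefore rested on AhR knockout 2, and its log2 difference of 0.53 became -0.34 without that array. A second Cks2 probe set gave -0.23.

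Foxm1, the transcription factor that activates many of these genes, read 88.7 and 100.2 in AhR knockout, against 52.9 and 95.6 in wild type, with a log2 difference of 0.33 and adjusted p = 0.64. Its groups overlapped, and without wild type 1 the difference was -0.016.

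Among the mitotic kinases, Aurka, Plk1 and Nek2 each read higher in both knockout arrays than in either wild-type array. The same order was found in 29.4% of all measured genes, and Aurka passed the filter only through its knockout signals. Aurka, which matures the spindle poles, read 145 and 197 in AhR knockout, against 80.3 and 56.2 in wild type, a log2 difference of 1.15 ± 0.38 with adjusted p = 0.14. Plk1, the polo kinase of mitotic entry and spindle assembly, read 146 and 69.0 in AhR knockout, against 48.8 and 31.9 in wild type. It was under the filter, and its log2 difference of 1.08 had adjusted p = 0.33 in the fit without the filter. Nek2, a kinase of centrosome separation, read 53.0 and 53.6 in AhR knockout, against 34.3 and 16.9 in wild type (log2 difference 0.77, adjusted p = 0.36 without the filter).

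The chromosomal passenger complex carries the kinase Aurkb to centromeres and then to the midzone of the spindle. Birc5, its survivin subunit, read 137 and 119.7 in AhR knockout, against 75.3 and 51.3 in wild type, a log2 difference of 0.88 ± 0.37 with adjusted p = 0.22. Aurkb was under the filter, with 66.5 and 43.1 in AhR knockout and 40.1 and 32.7 in wild type. Incenp, the scaffold of the complex, read 1306 and 1665 in AhR knockout, against 1391 and 957.5 in wild type. Incenp overlapped between the groups, with a log2 difference of 0.35 ± 0.38 and adjusted p = 0.61. Birc5 and Aurkb did not overlap, with both knockout arrays above, as for 29.4% of all measured genes. Birc5 passed the filter only through its knockout signals.

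Spindle checkpoint genes, whose products delay anaphase until every chromosome is attached, had differences between -0.38 and 0.39. Mad2l1 read 159.7 and 232 in AhR knockout, against 135 and 152 in wild type, a log2 difference of 0.39 ± 0.37 with adjusted p = 0.56. Bub3 read 4132 and 3707 in AhR knockout, against 3588 and 2655 in wild type, a log2 difference of 0.34 ± 0.33 with adjusted p = 0.56. In both genes the difference was about the size of its SE, and a second Bub3 probe set gave -0.11. Under the filter, Bub1, a checkpoint kinase, read 0.78 and 46.8 in AhR knockout, against 23.1 and 30.0 in wild type. Bub1b, which inhibits Cdc20, read 103 and 46.5 in AhR knockout, against 81.3 and 54.4 in wild type. Ttk, the kinase at the head of the checkpoint, read 16.03 and 24.8 in AhR knockout, against 16.3 and 15.4 in wild type. These 3 overlapped between the groups.

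Kinesins, the motors that build and pull the spindle, were mostly dim. Only Kif22, a chromosome-arm motor, passed the filter. It read 1262 and 593 in AhR knockout, against 582 and 444 in wild type, a log2 difference of 0.75 ± 0.44 with adjusted p = 0.35. On this probe set the excess lay in AhR knockout 1, which read 1.29 above the wild-type mean on the log2 scale, against 0.22 for AhR knockout 2. A dimmer Kif22 probe set read 63.5 and 65.5 in AhR knockout, against 31.6 and 24.7 in wild type. Another, dimmer still, read 34.0 and 36.1 in AhR knockout, against 14.5 and 13.6 in wild type. On these 2 the knockout arrays lay close together, with log2 differences of 0.87 and 0.76. Kif2c, which takes microtubules apart at centromeres, read 138 and 87.9 in AhR knockout, against 51.3 and 45.0 in wild type. Kif20a, a motor of cytokinesis, read 95.2 and 76.5 in AhR knockout, against 46.7 and 37.2 in wild type. Kif4, a chromosome-bound motor, read 25.7 and 61.2 in AhR knockout, against 6.93 and 14.6 in wild type. For these 3 the groups did not overlap, with both knockout arrays above, as for 29.4% of all measured genes. Their log2 differences of 0.98, 0.81 and 1.10 had adjusted p of 0.31, 0.34 and 0.28 in the fit without the filter. Kif11, which pushes spindle poles apart, read 4.51 and 61.2 in AhR knockout, against 22.5 and 33.2 in wild type, so that the knockout arrays lay on either side of the wild-type ones.

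Kif23, a motor of the central spindle, was the 1 measured mitosis gene with both knockout arrays below both wild-type arrays. It read 5.86 and 9.47 in AhR knockout, against 28.2 and 29.1 in wild type, a log2 difference of -0.92 with adjusted p = 0.23 in the fit without the filter. All 4 values were dim. Another Kif23 probe set, dimmer still, read 5.94 and 12.3 in AhR knockout, against 0.74 and 0.28 in wild type. The probe sets therefore opposed each other, and no direction can be given for this gene. Its partner in the centralspindlin complex, Racgap1, read 134 and 112 in AhR knockout, against 76.0 and 94.3 in wild type, a log2 difference of 0.46 ± 0.36 with adjusted p = 0.49.

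The remaining genes of the spindle and of cytokinesis were mixed, with overlap between the groups for Prc1 and Nusap1. Prc1, which bundles midzone microtubules, read 124 and 288 in AhR knockout, against 123 and 208 in wild type, a log2 difference of 0.23 ± 0.46 with adjusted p = 0.80. It changed sign to -0.33 without AhR knockout 2 and to -0.12 without wild type 1. Tpx2, which activates Aurka on the spindle, read 89.9 and 100.3 in AhR knockout, against 78.6 and 87.1 in wild type (log2 difference 0.17, adjusted p = 0.81). Nusap1, a microtubule-binding protein, read 33.6 and 71.5 in AhR knockout, against 21.4 and 37.8 in wild type. Hmmr, a spindle pole protein, read 40.2 and 87.1 in AhR knockout, against 17.3 and 30.9 in wild type. Of these 4, Tpx2 and Hmmr did not overlap between the groups, with both knockout arrays above, as for 29.4% of all measured genes. A dimmer Tpx2 probe set gave -0.23.

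Genes of chromosome structure did not share a direction. Top2a, the topoisomerase that untangles sister DNA, read 123 and 202 in AhR knockout, against 97.3 and 98.5 in wild type, a log2 difference of 0.61 ± 0.38 with adjusted p = 0.38. Smc4, a core condensin subunit, read 50.9 and 132 in AhR knockout, against 57.5 and 125 in wild type, a log2 difference of -0.035 ± 0.49 with adjusted p = 0.97. Smc2, its partner in condensin, read 25.5 and 104 in AhR knockout, against 41.7 and 95.2 in wild type. In both condensin genes animals numbered 2 read high and animals numbered 1 low in either genotype. Mki67, the usual proliferation marker Ki-67, was dim except on 1 array, with 7.01 and 135 in AhR knockout and 10.99 and 10.3 in wild type. Its single probe set therefore gave no reading of proliferation common to both knockout animals.

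**Figure D3:**
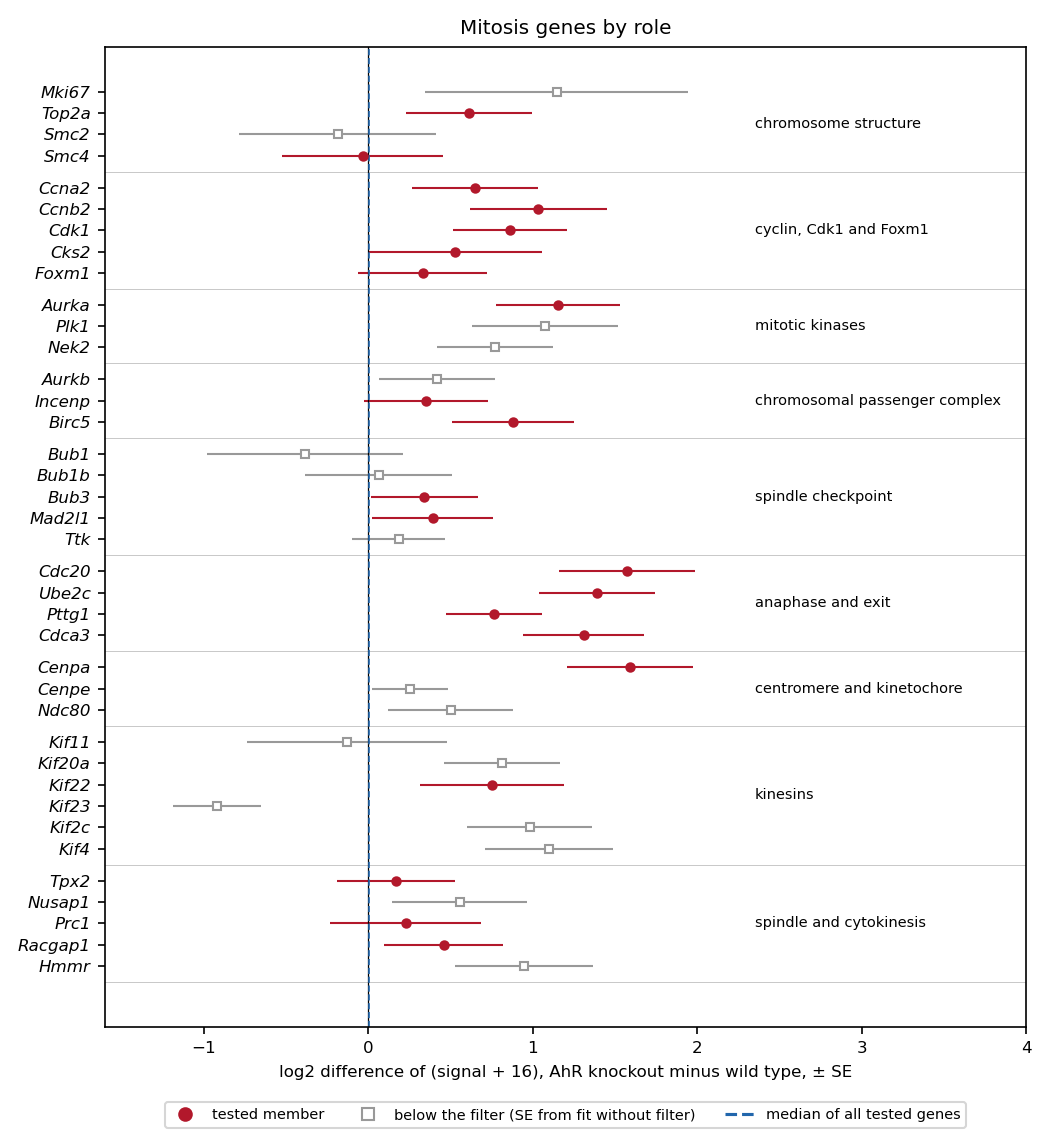
Points give the log2 difference of (signal + 16), AhR knockout minus wild type, with limma's SE, for the 38 measured mitosis genes grouped by role; filled circles were tested and open squares lay under the filter, with SE from the fit without it. Anaphase and exit genes and Cenpa lie between 0.77 and 1.59, and Smc4, Smc2, Bub1, Kif11 and Kif23 lie below 0.

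Of the 38 genes, 21 had more than a single probe set, 37 further ones in all. Their sign was that of the brighter probe set in 24 of the 37, and in 7 of the 9 with a mean signal of at least 50. The 2 that differed there were those of Bub3 and Cks2 given above. In all, 13 of the 37 had the opposite sign. Dimmer probe sets of opposite sign read above 0 for Smc4 (0.58 and 0.52), Kif11 (0.56 and 0.39), Kif23 (0.59) and Bub1 (0.37). They read below 0 for Foxm1 (-0.19), Hmmr (-0.20), Nusap1 (-0.081), Tpx2 (-0.23) and a further Bub3 probe set (-0.31).

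Beyond these 40 genes, further genes of mitosis were split. Of 23 tested, 13 read higher in AhR knockout and 10 read lower (median log2 difference 0.35). None passed limma's test, and 2 of the higher and 3 of the lower had an unadjusted p under 0.05, where 7.68% of all tested genes were higher and 12.9% lower at that p. Pbk, a mitotic kinase, read 207 and 374 in AhR knockout, against 73.7 and 70.4 in wild type (log2 difference 1.74, adjusted p = 0.067). Cdca5, sororin, which guards sister cohesion, read 353 and 258 in AhR knockout, against 165 and 129 in wild type (log2 difference 0.97, adjusted p = 0.18). Both were clear of the wild-type arrays, although Pbk passed the filter only through its knockout signals. In the other direction, Kif2a, a microtubule-depolymerising kinesin also used outside mitosis, read 129 and 223 in AhR knockout, against 423 and 814 in wild type (log2 difference -1.70, adjusted p = 0.087). Mis12, a kinetochore protein, read 92.2 and 42.8 in AhR knockout, against 160.4 and 199 in wild type (log2 difference -1.29, adjusted p = 0.14). However, Mis12 passed the filter only through its wild-type signals, which fixed the direction of its mean signals.

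Subunits of the anaphase-promoting complex were split too. Of 10 tested, 6 read higher and 4 read lower (median 0.31). None passed limma's test, and 2 of the higher and 1 of the lower had an unadjusted p under 0.05, against shares of 7.68% and 12.9% over all tested genes. Anapc11, the RING subunit that receives Ube2c, read 634 and 827 in AhR knockout, against 267 and 405 in wild type (log2 difference 1.10, adjusted p = 0.16). Anapc4, a scaffold subunit, read 845 and 1013 in AhR knockout, against 1948 and 1873 in wild type (log2 difference -1.03, adjusted p = 0.15). Anapc13 and Anapc1 differed by 0.99 and -0.86, with adjusted p of 0.23 and 0.26. The groups did not overlap in any of these 4 subunits. Over the 10, both knockout arrays lay above wild type in 6 and below it in 2, as in 28.7% and 26.7% of all tested genes.

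Cohesin, the ring that holds sister chromatids together until anaphase, read lower in AhR knockout for all 7 tested genes. The median was -0.79 on the log2 scale, or -1.22 for AhR knockout 1 and -0.41 for AhR knockout 2 against the wild-type mean. None passed limma's test, and 2 were lower at an unadjusted p under 0.05, as were 12.9% of all tested genes. Smc1a, a core subunit, read 132 and 460.3 in AhR knockout, against 601 and 789 in wild type (log2 difference -1.41, adjusted p = 0.18). Rad21, the subunit that separase cuts, read 629 and 1049 in AhR knockout, against 1483 and 1499.8 in wild type (log2 difference -0.86, adjusted p = 0.25). Stag1 and Pds5a differed by -1.19 and -0.75, with adjusted p of 0.23 and 0.31. In these 4 of the 7 the groups did not overlap, with both knockout arrays below, as in 26.7% of all tested genes. However, Pds5a passed the filter only through its wild-type signals, which fixed the direction of its mean signals.

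The regulators that switch mitosis genes were split. Of 13 tested DREAM, MuvB, E2F and NF-Y genes, 6 read higher and 7 read lower (median -0.29). None passed limma's test, and 3 of the lower and 0 of the higher had an unadjusted p under 0.05, beside 12.9% and 7.68% of all tested genes. Nfyb, a subunit of the NF-Y factor, read 268 and 173 in AhR knockout, against 479.7 and 784 in wild type (log2 difference -1.44, adjusted p = 0.10). Rbl2, the p130 protein of the DREAM complex in resting cells, read 285 and 157 in AhR knockout, against 595 and 476 in wild type (log2 difference -1.27, adjusted p = 0.13). Rb1, the retinoblastoma protein, read 221 and 527 in AhR knockout, against 725 and 705 in wild type (log2 difference -1.02, adjusted p = 0.23). Nfyb, Rbl2 and Rb1 did not overlap between the groups, and 4 of the 13 lay below in both knockout arrays, where 26.7% of all tested genes did, while Tfdp1, a partner of E2F, differed by -1.01 with overlap. Mybl2, which encodes B-Myb, was dim, with 29.2 and 54.6 in AhR knockout and 21.8 and 39.1 in wild type.

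Genes of the preceding phase, DNA replication and G1/S, read higher for 19 of 28 tested and lower for 9 (median 0.16). None passed limma's test, and 4 of the higher and 0 of the lower had an unadjusted p under 0.05, while 7.68% of all tested genes were higher and 12.9% lower at that p. Ccnd3, cyclin D3, read 2436 and 2719 in AhR knockout, against 1471 and 864 in wild type (log2 difference 1.18, adjusted p = 0.14). Mcm2, of the replicative helicase, read 473 and 435 in AhR knockout, against 270.1 and 229 in wild type (log2 difference 0.82, adjusted p = 0.23). Rfc5 and Prim1 differed by 1.005 and 1.27, each with adjusted p = 0.19, and Prim1 passed the filter only through its knockout signals. The promoters of this list held the CHR letters in 3 of 32 genes, or 9.38%.

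Inhibitors of the cell cycle kinases read higher for 5 of 7 tested and lower for 2, where 50.3% of all tested genes were higher. Their median was 0.24, or 0.66 for AhR knockout 1 and -0.023 for AhR knockout 2 against the wild-type mean. None passed limma's test, and 1 of the higher and 0 of the lower had an unadjusted p under 0.05, beside 7.68% and 12.9% of all tested genes. Cdkn1a, the p21 inhibitor, read 7811 and 8722 in AhR knockout, against 5932 and 4017 in wild type (log2 difference 0.76, adjusted p = 0.21). Cdkn2b, the p15 inhibitor, went the other way, with 1937 and 1699 in AhR knockout, against 2573 and 3148 in wild type (log2 difference -0.64, adjusted p = 0.31). Cdkn2c and Cdkn1b differed by 0.75 and 0.40, with adjusted p of 0.27 and 0.49.

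**Figure D4:**
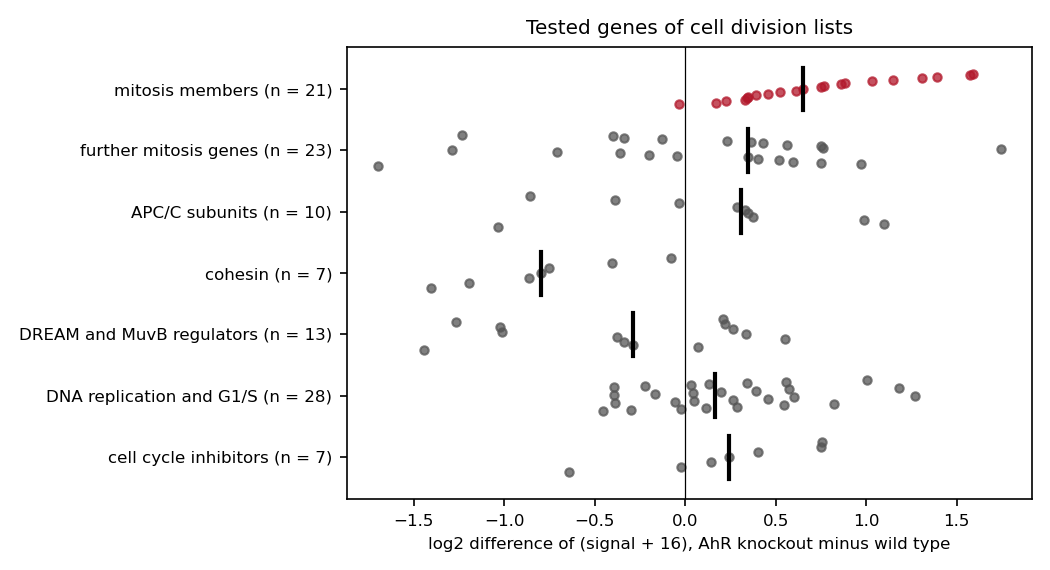
Points give the log2 difference of (signal + 16), AhR knockout minus wild type, of each tested gene in 7 lists of cell division genes, and black bars the medians. The mitosis genes run between -0.035 and 1.59 around a median of 0.65, and the further lists lie on both sides of 0 apart from the 7 cohesin genes, which lie below 0.

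Cell type markers differed between the same cultures. Melanocyte markers read higher for 6 of 7 tested genes (median 0.72 on the log2 scale), where 50.3% of all tested genes were higher. Their summed signal was 79485 and 106155 in AhR knockout, against 67261 and 53935 in wild type. Mitf read lower, with 1668 and 2462 in AhR knockout, against 2771 and 2644 in wild type (log2 difference -0.41, adjusted p = 0.52 in limma). Tyrp1 overlapped between the groups. Endothelial markers were lower for all 7, with a median of -1.94, and their sum was 6550 and 1934 in AhR knockout, against 13296 and 16399 in wild type. The melanocyte markers were bright on every array, and the endothelial sum was lowest on AhR knockout 2. The 5 keratinocyte markers summed to 1385 in AhR knockout 1 and 288 in AhR knockout 2, against 188 and 213 in wild type. The 6 fibroblast markers summed to 318 and 245 in AhR knockout, against 590.1 and 794 in wild type. Col3a1, a fibrillar collagen, made up most of that sum in wild type. It read 95.1 and 50.5 in AhR knockout, against 372 and 439 in wild type (log2 difference -2.29, adjusted p = 0.041 in limma). However, Col3a1 passed the filter only through its wild-type signals, which fixed the direction of its mean signals. Col1a1 and Pdgfra also read lower on both knockout arrays. Dcn and Lum had higher means, by 0.39 and 0.71 on the log2 scale, and Dcn overlapped between the groups. Of these, Col1a1, Pdgfra and Lum lay under the filter. The 5 leukocyte markers, led by Lyz2, summed to 2849.99 and 2981 in AhR knockout, against 778 and 976 in wild type. Lyz2, a lysozyme of macrophages and other myeloid cells, read 2628 and 2776 in AhR knockout, against 669 and 881 in wild type (log2 difference 1.79, adjusted p = 0.054). C1qb, a complement gene of macrophages, read 146 and 134 in AhR knockout, against 54.8 and 65.4 in wild type (log2 difference 1.04, adjusted p = 0.16), and passed the filter only through its knockout signals. Both knockout arrays were above wild type in 4 of the 5, Cd52 and Cd3e included, where 29.4% of all measured genes showed this order. Ptprc overlapped, and Cd52, Cd3e and Ptprc lay under the filter. Cd3e and Ptprc stayed under 50 on every array. Which cells carried the mitosis transcripts, and the part of these shifts in their difference, was not tested.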

How the data were processed

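The deposited values are linear signal intensity per probe set, made by the authors with MAS5 (per the submitters' processing notes; version not given in the sources used here). Nothing used here states detection calls or background handling. Of 22690 probe sets, 20380 had a single gene symbol, updated through gene identifiers to RefSeq's table of GRCm38.p6 (20351 matched), and 691 with several were left out. All 4 columns were used. Signals became log2(signal + 16), so folds of dim genes are understated. The top 60% of genes by mean signal, 7436 in all, were fitted with limma 3.58.1 in R 4.3.3 (lmFit, eBayes with trend), 2 AhR knockout against 2 wild-type arrays with no covariate. A permutation of 2 against 2 arrays cannot fall below 33.3%, so p-values rest on the model. The script was tested on simulated arrays.

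The members, role groups and lists were chosen with earlier results of these data known, so the counts are descriptions. All 40 members are accounted for. In each role group the 2 tested genes with the smallest p got full statistics, and up to 4 genes per pathway list were named. Others named, with Mybl2, Tfdp1 and the single fibroblast and leukocyte markers, and the filter on mean log2 signal, were picked after their values were seen. Promoters were printed for the 3 smallest p among members with the CHR letters and for the difference nearest to 0. Figures used matplotlib 3.10.9. Alternatives were quantile normalization, equal medians, pseudocounts of 1 and 64, no filter, a top 40% filter, means of probe sets, eBayes without trend or robust, the title number as a block, and each array left out.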

Additional observations from a re-analysis of the deposited data

How the results depend on the processing

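The median log2 difference of the tested mitosis genes kept its direction under every alternative run, between 0.52 (pseudocount 64) and 0.85 (without AhR knockout 1), and those higher in AhR knockout were 33 of 38 with no filter and 6 of 6 with the top 40% of genes. No mitosis gene passed limma's test as reported, with 9 at an unadjusted p under 0.05, nor under the scalings, pseudocounts, filters, probe set means and variance priors tried. Leaving out single arrays gave between 0 and 8 calls, all higher, with no call when either wild-type array was left out. With the titles' numbers as a replicate block, 6 passed, among 440 genes higher and 966 lower; the labels give no shared litter or day, same-numbered arrays deviated together with a correlation of 0.35 across 7436 genes, and 2 pairs cannot settle pairing.

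Over all tested genes 15 were called higher and 56 lower. These counts were 7 and 18 with quantile normalization, 25 and 48 with equal array medians, 9 and 34 with a pseudocount of 1, 0 and 1 with no filter, 5 and 15 with the top 40%, and 9 and 31 with probe set means. Without single arrays they ran between 4 and 532 higher and between 16 and 828 lower. Rises were 21.1% of calls, or 34.2% with equal medians. The sign of 4 mitosis genes turned. Smc4, at -0.035 as reported, was 0.014 with quantile normalization, 0.038 with equal medians, 0.54 without AhR knockout 1 and 0.44 without wild type 2. Without AhR knockout 2, Cks2 was -0.34 and Prc1 -0.33, while Smc4 kept its sign at -0.61. Foxm1 was -0.016 and Prc1 -0.12 without wild type 1. The highest values with an array left out were 1.39 for Cks2 and 0.78 for Prc1, without AhR knockout 1, and 0.68 for Foxm1, without wild type 2. The causes were not tested. With TTCGAA also accepted, 75.8% of mitosis genes held the CHR letters. The number of arrays and dim signals of 17 genes limit the precision.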
